A study of Mus musculus with 2 samples.

Results

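The HoxB cluster of the mouse genome holds 10 protein-coding genes, Hoxb1 to Hoxb9 and Hoxb13, and 40 of the 34139 differentially methylated regions that the authors deposited as a list lay there. The regions were taken by position only, as those touching chromosome 11 between 96189316 and 96373254 (mm10), which is the stretch from the outer end of Hoxb13 to the outer end of Hoxb1 with 5 kb added on both sides. The list compares bisulfite-sequenced genomic DNA of 2 libraries, 1 of CD137+ and 1 of PDGFRα+ (CD140a+) adipose progenitors of C57BL/6 mice. Bisulfite treatment changes unmethylated cytosines and leaves methylated ones, so sequencing can read methylation. Cells were sorted with magnetic beads from the fat depots labelled SAT or VAT, grown and exposed to an adipogenic cocktail. Both libraries carry the label DEX treatment (DEX being the usual short form of dexamethasone, a synthetic glucocorticoid), so nothing here compares treated with untreated cells. The labels give neither the animals' age nor the fat depot behind each library, so a difference of depot and a difference of sorted cell cannot be told apart.

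Each region carries only a signed score, the authors' own value, with no methylation level per library, no read depth and no number of CpG sites. Such scores are used here only to rank and describe regions within the list, and the depth behind them is unknown. The list names the PDGFRα+ sample before the CD137+ sample. Were the score the first sample minus the second, negative would stand for less methylation in PDGFRα+ cells, but the list does not state this, and signs are therefore reported as written. Each group is a single library, so no replicate spread and no p-value can be given. The list holds no expression values, and the labelled cell types could not be checked against their markers.

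HOX genes encode homeodomain transcription factors that give cells their position along the head-to-tail axis. Within a cluster the genes lie in the order in which they are used along that axis, with the low-numbered, anterior genes at one end and the high-numbered, posterior genes at the other. Adult fibroblasts and fat progenitors retain HOX patterns that differ between body sites, and the unused part of a cluster is commonly held silent by Polycomb proteins or by DNA methylation. HoxB runs along chromosome 11 from Hoxb13 at the lower coordinates to Hoxb1 at the higher ones, and it also contains the microRNA genes Mir10a and Mir196a-1 and several noncoding RNA genes.

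The Hoxb8 start site was the only one of the 3 HoxB start sites with a reference sequence at hand (Hoxb8, Hoxb4 and Hoxb1) where a region reached into the window from 250 bases before to 50 bases after the start. Of all 32817 such windows, 1.21% were overlapped by a region. The 250 bases before the Hoxb8 start are shown for that reason (chr11:96281655-96281904, plus strand, RefSeq, GRCm38.p6, the assembly that mm10 names), with the 77 bases covered by the region of score -169 in capitals.
Hoxb8 upstream: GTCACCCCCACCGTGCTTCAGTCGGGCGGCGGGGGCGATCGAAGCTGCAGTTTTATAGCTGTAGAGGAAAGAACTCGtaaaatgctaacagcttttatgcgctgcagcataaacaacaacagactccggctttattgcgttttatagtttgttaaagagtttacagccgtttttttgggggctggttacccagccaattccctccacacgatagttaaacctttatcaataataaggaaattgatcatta
The covered stretch was 30.8% of these bases but held 7 of their 12 CpG dinucleotides, the sites where DNA methylation is mostly found in mammals. Its GC content was 59.7%, against 37.6% in the 173 bases that follow it up to the start.

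MicroRNAs are short RNAs that repress target transcripts, and miR-196 is known for directing cleavage of the Hoxb8 transcript. Those of the cluster are shown because 1 of the 2 hairpins touched a region, whereas 1.19% of 1005 mouse hairpins in the RefSeq table did. The capitals mark the seed, bases 2 to 8, which pairs with target transcripts.
mmu-miR-196a-5p: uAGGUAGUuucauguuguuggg
mmu-miR-10a-5p: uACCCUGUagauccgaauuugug
The mature miR-196a-5p lies at chr11:96265187-96265208 (plus strand) and miR-10a-5p at chr11:96317186-96317208 (plus strand). The 2 seeds differ, so they form no common seed group. A region of 65 bp and score -41.6 (96265106 to 96265170) covered the first 7 bases of the Mir196a-1 hairpin and ended 17 bp before the mature sequence. The nearest region to the Mir10a hairpin lay 1.73 kb away, between Mir10a and Hoxb5, with a score of -63.4.

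Regions in the HoxB cluster were dense and almost all negative. Of the 40 regions 37 had a negative score, or 92.5% (95% Wilson interval 80.1 to 97.4, covering the counting of regions only), against 67.4% of the whole list and 66.9% (64.8 to 69.0) of the 1877 regions elsewhere on chromosome 11. These intervals treat neighbouring regions as independent, though the closest in the cluster lay 55 bp apart. The cluster held 2.17 regions per 10 kb, which was 14.1 times the density of the rest of chromosome 11 (0.154 per 10 kb) and 15.9 times that of all autosomes. Regions covered 4.59% of the cluster's bases, against 0.239% of the rest of the chromosome, and 97.2% of the 8445 covered bp lay in negative regions.

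Regions were absent at the Hoxb1 end of the cluster and just beyond the cluster on both sides. The last 21.6 kb at the Hoxb1 end, the added 5 kb included, held none, whereas 2 lay in the added 5 kb beside Hoxb13. The next 45 kb on each side, up to 50 kb beyond the outer genes, added no region (40 in both cases). On the Hoxb13 side, no region lay in the 23.1 kb before the neighbouring gene Ttll6, a tubulin-modifying enzyme gene, which itself had none, 5 kb on either side included. On the Hoxb1 side, 1 region lay in the 91.3 kb before Skap1, an adaptor protein gene of T cells, which had 9 regions, 6 of them negative. When the autosomes were divided into 13365 consecutive stretches of the cluster's length, 183.9 kb, the median stretch held 2 regions and 3449 held none. The stretch with most of HoxB held 38 and ranked second, after the 41 of the stretch with most of HoxA and before the 35 of that with most of HoxC. Only 12 stretches held 20 regions or more, and 9 of these had no HOX cluster. The share of negative regions in these 12 ran from 0% to 95.2%, both in stretches without a HOX cluster, with a median of 72.1%. The stretch with most of HoxB stood at 92.1%.

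**Figure D1:**
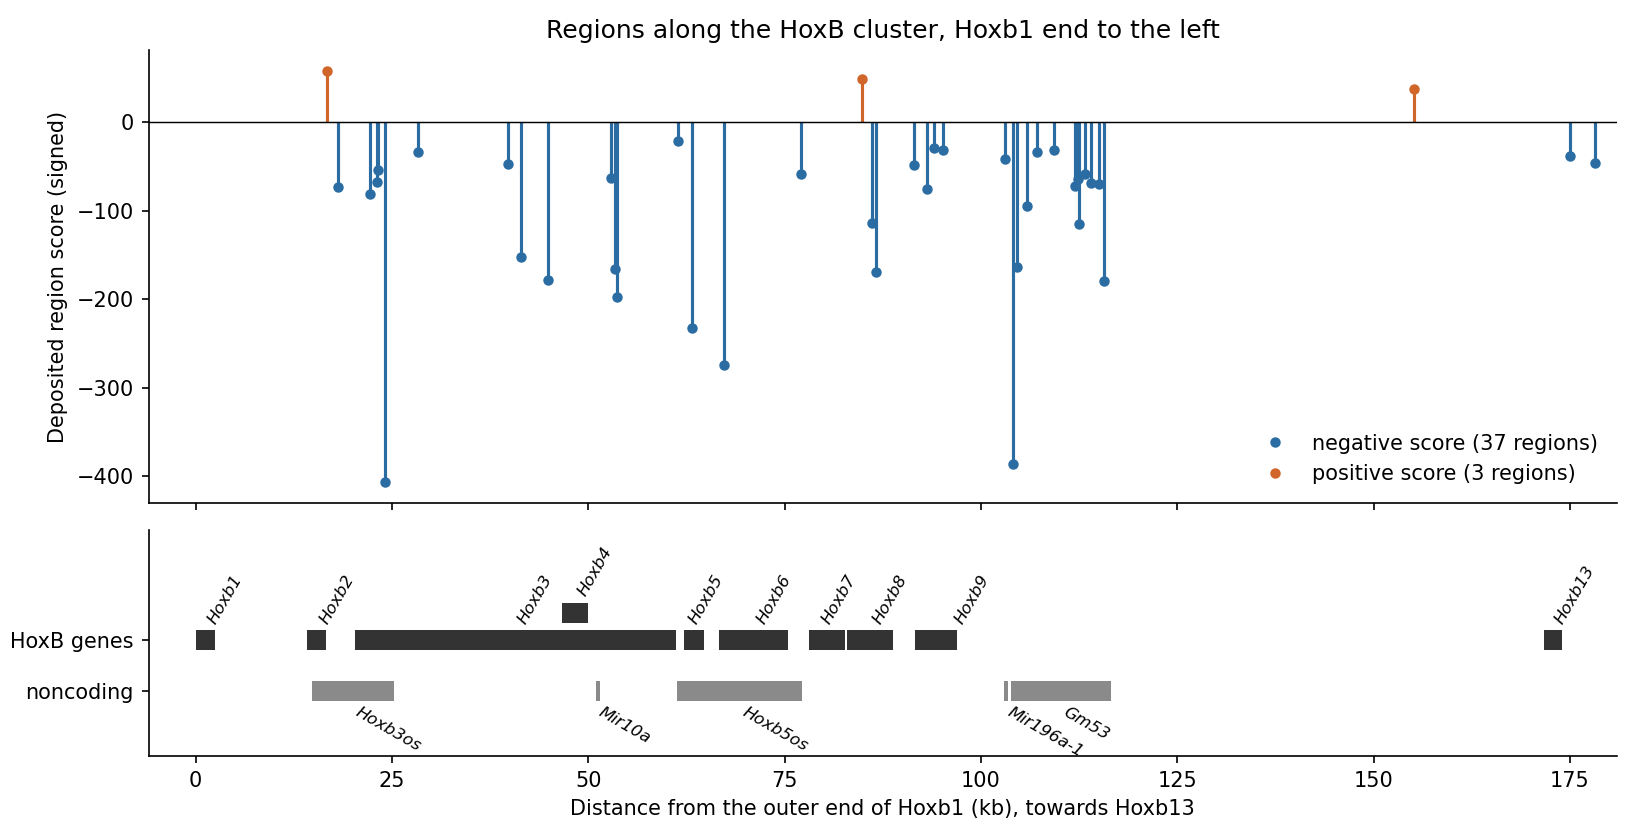
Signed score of each of the 40 regions (upper panel, vertical axis) against distance in kb from the outer end of Hoxb1 (horizontal axis, Hoxb1 left, Hoxb13 right), with the HoxB genes and selected noncoding genes drawn to scale below. Blue stems (37) are negative and orange stems (3) positive. The 2 deepest stems, -407 and -387, stand within Hoxb3 and on the Hoxb13 side of Hoxb9, and no stem stands over Hoxb1.

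At the anterior end, Hoxb1 and Hoxb2, which pattern the hindbrain in the embryo, had few regions or none. Hoxb1 (96365746 to 96368254) had none in its body or in the 5 kb on either side, and the nearest lay 14.1 kb away. The other 9 of the 10 members had at least 1 in that window, as did 35.1% of 21887 protein-coding genes of any length. Hoxb2 (96351632 to 96354020) had no region in its body and 2 beside it. One of these was the strongest of the 3 positive regions of the cluster, 83 bp at 96351540 to 96351622 with a score of 57.8, and it ended 10 bp from the gene. The other, 1.48 kb from the gene, scored -73.5. The sign thus changed between 2 neighbouring regions 1382 bp apart, both of them inside Hoxb3os, a noncoding RNA gene that overlaps Hoxb2 and an end of Hoxb3.

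Hoxb3 held more regions than any other member, and all of those in its body were negative. The gene as listed is long, 40.8 kb (96307101 to 96347930), and its body held 11 regions, all negative. As many or more in the body were found for 1.06% of protein-coding genes, and at least 1 for 28.9%, counts that are not adjusted for gene length. Over the cluster the density was 2.17 regions per 10 kb, and in the Hoxb3 body it was 2.69. The strongest region of the cluster lay here, 465 bp at 96343965 to 96344429 with a score of -407, a size reached by 0.483% of the whole list. It also lies in Hoxb3os, as do the 3 regions next to it on the Hoxb2 side (-54.1, -68.0 and -81.6). A second group of 3 regions, separated by 65 bp and 310 bp, scored -198 (205 bp at 96314497 to 96314701), -166 (194 bp at 96314767 to 96314960) and -63.4.

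Hoxb4, which encodes a factor known for expanding blood stem cells, lies wholly within the listed span of Hoxb3 (96318267 to 96321638) and had no region in its own body. It sat in a gap of 7.80 kb without regions that also holds Mir10a. The closest region to it, of 420 bp and score -179 (96323232 to 96323651), lay 1.59 kb beyond its upper end and inside Hoxb3. All 4 regions within 5 kb of Hoxb4 were negative, and all 4 lie in the body of Hoxb3, so the list cannot assign them to either gene. The Hoxb4 window around its start held 14 CpG dinucleotides, no fewer than the 13 of Hoxb8, but no region came closer than 2.59 kb to it.

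In the middle of the cluster, Hoxb5 and Hoxb6 each had 1 strong negative region in the body. The Hoxb5 region, 254 bp at 96304907 to 96305160, scored -232 and covered 9.73% of the gene. The Hoxb6 region, 395 bp at 96300717 to 96301111, scored -275, the third strongest of the cluster. Both also lie in Hoxb5os, a noncoding RNA gene that runs over both, so a region here belongs to 2 annotated genes. Hoxb7 (96285604 to 96290163) had none in its body. Its nearest region, 1005 bp away, scored -58.9, and of 4 regions within 5 kb 3 were negative. A gap of 9.48 kb without regions separated the Hoxb6 region from that next one.

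Hoxb8 combined both signs. Besides the region of 270 bp and score -169 (96281462 to 96281731), which ended 174 bp before the start site at 96281905, a negative region of 183 bp and score -114 (96282018 to 96282200) began 113 bp after it. The bases directly around the start thus lay between 2 negative regions and in neither. A positive region of 78 bp and score 48.8 (96283319 to 96283396) lay 1.41 kb after the start. The listed gene begins 2504 bp before this start site, so all 3 regions count as inside the gene.

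Hoxb9 had the largest share of its body covered by regions among the 10 members, with no score in its body reaching an absolute value of 100. Its 3 body regions covered 18.9% of the gene and scored -31.1, -28.9 and -75.2, and a further region 14 bp beyond its upper end scored -48.3. The region of score -28.9 was the widest in the cluster at 564 bp, and its score was smaller in size than those of the 65 bp regions elsewhere in the cluster (-58.9 and -41.6). Width and score therefore did not go together at Hoxb9 as they did over the 40 regions, where Spearman's rho between width and absolute score was 0.67 (0.65 over the whole list).

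The densest run lay outside the HOX genes, between Hoxb9 and Hoxb13. Over 12.8 kb (96252390 to 96265170) it held 13 regions, all negative, or 10.2 per 10 kb, and these covered 24.4% of its bases. Its nearest region lay 6.16 kb from Hoxb9 and its farthest 18.6 kb, measured to the near end of each. Of the 13 regions, 12 lie in Gm53, a noncoding RNA gene, and the last is the one that touches Mir196a-1. The second strongest score of the cluster, -387, belongs to a region of 561 bp in this run (96263888 to 96264448), followed 56 bp on by one of 369 bp and score -164 (96263463 to 96263831). At the far end of the run a region of 378 bp scored -179 (96252390 to 96252767), and the remaining scores lay between -115 and -31.9.

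Between that run and Hoxb13 the cluster was nearly empty. A gap of 39.3 kb, the longest in the cluster, was followed by 1 positive region of 77 bp and score 37.3 (96213015 to 96213091), 16.4 kb from Hoxb13, and by another gap of 19.7 kb. Hoxb13 (96194316 to 96196610), the most posterior member and known from prostate and tail development, lay in this second gap. It had no region in its body and 2 negative ones beside its lower end, with scores of -38.1 and -46.1 at 1.03 kb and 4.24 kb.

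By position, negative regions dominated every part of the cluster. The anterior stretch (Hoxb1 to Hoxb4) had 13 negative and 1 positive region, the middle (Hoxb5 to Hoxb9) 9 and 1, and the posterior (beyond Hoxb9) 15 and 1. Density was 2.10, 2.83 and 1.95 regions per 10 kb in that order, and the median absolute score 70.8, 67.1 and 66.9. Read along the chromosome, the signs formed 2 long negative runs, of 19 regions over 29.8 kb up to Hoxb8 and of 16 regions over 59.0 kb from Hoxb7 to beside Hoxb2, each bounded by single positive regions. Counting 5 kb on either side, 9 of the 10 members had a region, and 5 had one in the body. Over all protein-coding genes the shares were 35.1% and 28.9%. Of the 9, 5 had only negative regions, none only positive ones, and 4 both. These sign classes were not counted over all protein-coding genes, so no share can be set beside them. Of all listed regions, 67.4% were negative. Neighbouring members share regions in these counts: 26 regions lay in or within 5 kb of a member, 14 lay farther away, and 4 lay in no annotated gene.

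The positive regions of HoxB were all narrow and below an absolute score of 100. They were 77, 78 and 83 bp wide, against a median of 184 bp (65 to 564) among the 37 negative ones, and scored 37.3, 48.8 and 57.8. Among listed regions of over 75 and up to 100 bp the median absolute score was 39.0 and the upper quartile 51.0, so 2 of the 3 stood above that median and 1 above that quartile. Per bp, their median absolute score was 0.626, against 0.493 for the negative HoxB regions. The median absolute score of the negative regions was 69.5, and they ranged from -407 to -21.2. At an absolute score of 100 or more stood 13 of the 40 regions, or 32.5%, against 15.5% of the whole list, and all 13 were negative. HoxB regions were also wider than most, with a median of 172 bp against 112 bp. Within 6 width classes, 27 of the 40 had an absolute score above the list's median for their class and 21 stood above its upper quartile.

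**Figure D2:**
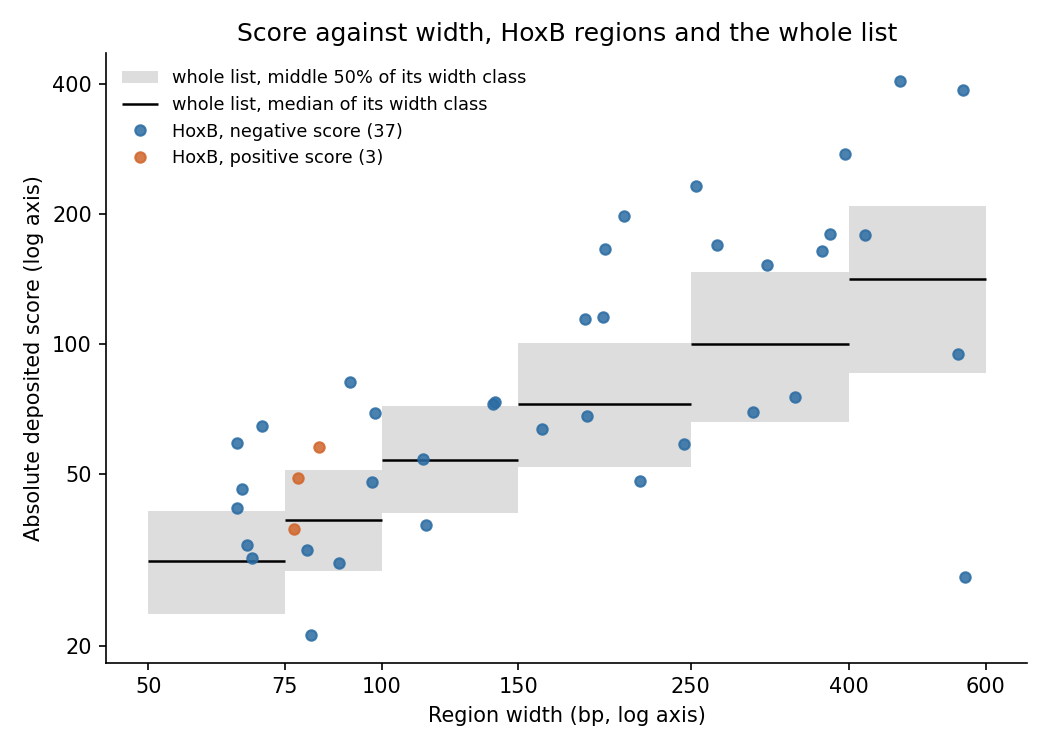
Absolute score (vertical axis, log) against region width in bp (horizontal axis, log) for the 40 HoxB regions, blue for negative and orange for positive. Grey boxes span the middle 50% and black lines the median of all listed regions of the same width class. Of the HoxB points 27 stand above the line of their class, the 3 orange ones lie among the narrow regions, and the lowest point among the widest regions is the Hoxb9 region of score -28.9.

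Set beside the other HOX clusters, taken in the same way with 5 kb on both sides, HoxB was close to HoxA in sign and below HoxA and HoxC in density. HoxA had 43 regions (3.72 per 10 kb), 88.4% of them negative (75.5 to 94.9), and HoxC had 39 (3.10 per 10 kb), 53.8% of them negative (38.6 to 68.4). HoxD had 4 regions, or 0.374 per 10 kb, 1 of them negative. The median absolute score of HoxB regions was 68.7, below the 93.6 of HoxA and the 111 of HoxC. The lowest score of HoxB, -407, stood against -2115 in HoxA and -506 in HoxC. Scores rise with width, and the median widths were 172, 178 and 217 bp in HoxB, HoxA and HoxC. The widest regions were 564, 2319 and 1163 bp in that order. Per bp the median absolute scores were closer to each other, at 0.501, 0.535 and 0.544. These are descriptions of 1 pair of libraries, and the differences between clusters were not tested.

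**Figure D3:**
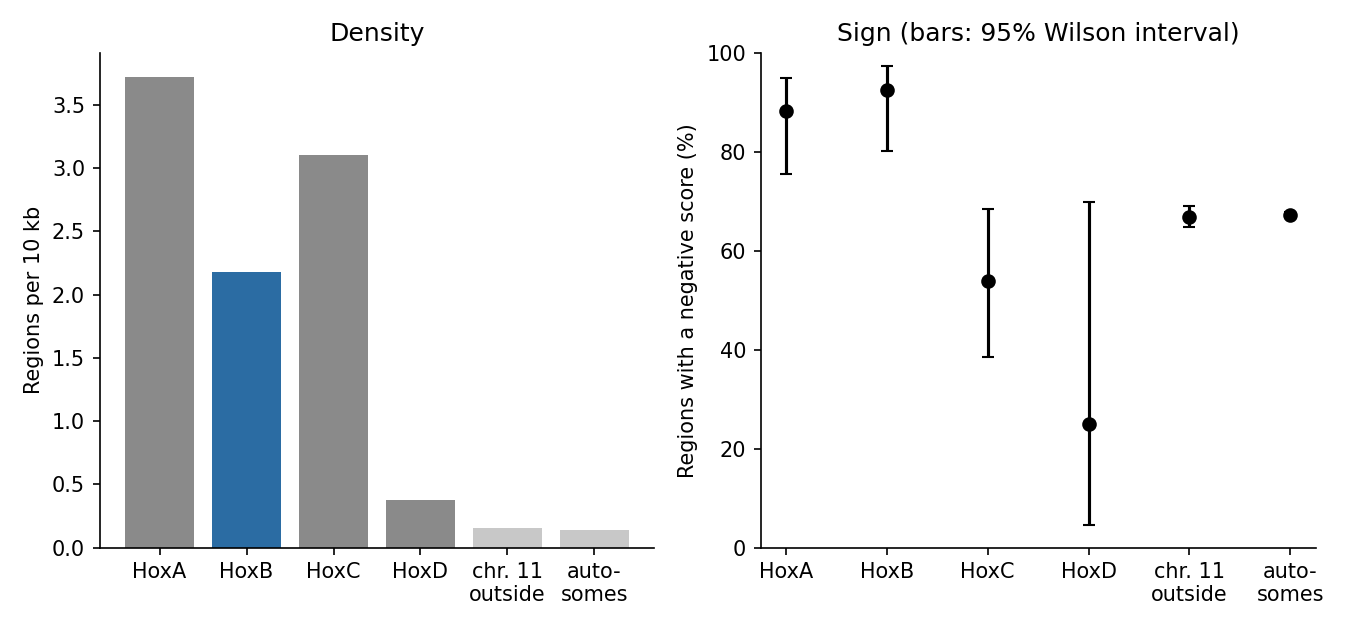
Regions per 10 kb (left, bars from 0) and percent of regions with a negative score (right, points with 95% Wilson intervals) in the 4 HOX clusters, the rest of chromosome 11 and all autosomes. HoxB, in blue on the left, stands at 2.17 per 10 kb against 0.154 for the rest of its chromosome, and at 92.5% negative.

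Paralogues, the genes of equal number that arose by duplication of an ancestral cluster, allow a comparison gene by gene. Hoxb3 and Hoxa3, both listed as long genes, had the most regions of their clusters, 15 and 26 with 5 kb on either side, of which 14 and 24 were negative, while Hoxd3 had 3. Hoxb5, Hoxb6, Hoxa5 and Hoxa6 had only negative regions, 3, 3, 7 and 7. The strongest stood at -275 for both HoxB genes, which share that region, and at -2115 for both HoxA genes, which likewise share theirs. These scores are not adjusted for region width. Hoxc5 had none and Hoxc6 1 positive region of score 193. For Hoxb8 and Hoxb9 the HoxC paralogues carried the other sign: Hoxb8 had 5 negative and 1 positive region and Hoxc8 4 positive ones, and Hoxb9 had 5 negative regions and Hoxc9 11 positive ones. Hoxb8 and Hoxb9 share most of their negative regions in these counts. Of regions in the gene body, 2 of 3 were negative for Hoxb8 and 3 of 3 for Hoxb9, against 0 of 1 for Hoxc8 and 0 of 6 for Hoxc9. At the posterior end Hoxb13 had 2 and Hoxc13 1, all negative, and Hoxa13 and Hoxd13 none.

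**Figure D4:**
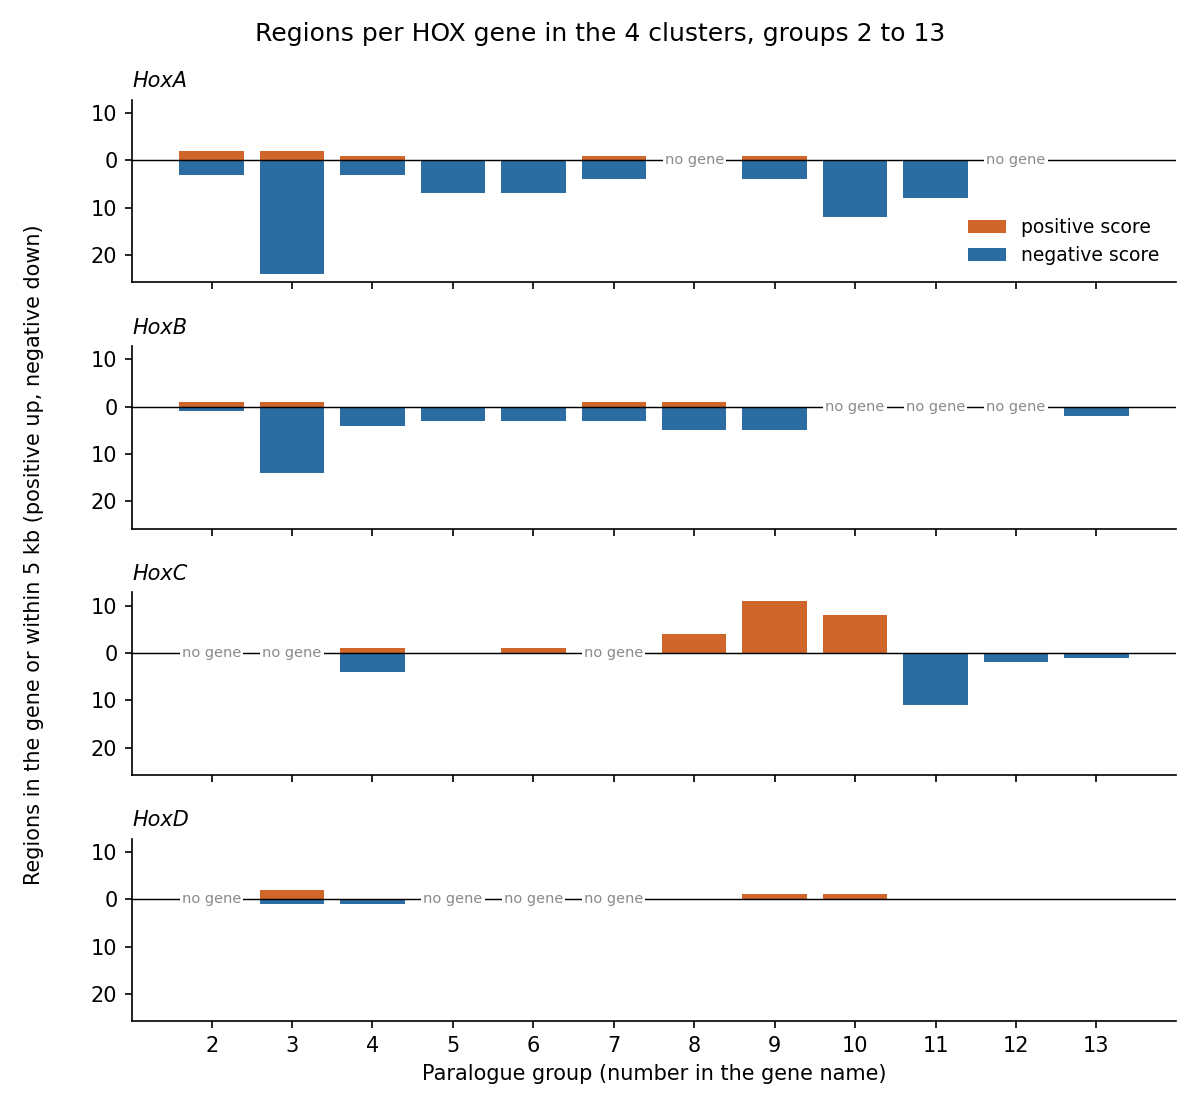
Number of regions in each HOX gene and 5 kb on either side (vertical axis, positive scores upward in orange, negative downward in blue) by paralogue group (horizontal axis, groups 2 to 13), 1 panel per cluster. A position without a bar has no region, and "no gene" marks groups the cluster lacks. HoxB bars point down from group 3 to group 9 with single positive regions at most, whereas the HoxC bars of groups 8 to 10 point up.

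Genes that act with or upstream of HOX genes were counted from lists chosen for their roles. Of 9 genes for the TALE cofactors of HOX proteins (Meis, Pbx and Pknox), which bind DNA together with them, 7 had a region in the body or the 5 kb on either side, and 67 of their 69 regions were negative, though 2 genes held 56 of these 69. Of 15 genes of retinoic acid synthesis, breakdown and reception, the signal that switches on anterior HOX genes in the embryo, 10 had regions, with 14 of 25 negative. Of 22 Polycomb, trithorax and related chromatin genes, which maintain HOX states, 10 had regions, with 12 of 19 negative. Of the 3 caudal-type genes that activate posterior HOX genes, only Cdx1, named after its values were seen, had regions (2, both positive). Each share is to be read beside the 35.1% of protein-coding genes with a region and the 67.4% of regions that were negative.

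The 3 HoxB start windows with a sequence were searched on both strands for letters that such factors bind. None of the 3 matched TAATTA, a homeodomain core that reads the same on both strands, or TGATTNAT, a HOX with PBX site. Direct repeats of AGGTCA or GGTTCA spaced by 2 or 5 bases, among the letters a retinoic acid receptor reads, had no match either. Other forms of such repeats were not searched. Among all windows, 5.30% held TAATTA, 3.22% TGATTNAT, 0.177% a repeat spaced by 2 and 0.0183% one spaced by 5. The CpG-dense letters CGCG occurred once, in the Hoxb4 window, against 38.0% of all windows with at least 1. CpG dinucleotides numbered 13 at Hoxb8, 14 at Hoxb4 and 10 at Hoxb1, above the median of 7 over all windows. As many or more were held by 37.9%, 36.3% and 43.4% of all windows in that order, so none of the 3 was unusual in number. Relative to the number that its C and G content would give, CpG stood at 0.970 for Hoxb8, 0.593 for Hoxb4 and 0.380 for Hoxb1. The median of this ratio over all windows was 0.383.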

How the data were processed

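One whole-genome bisulfite library each of CD137+ and PDGFRα+ progenitors enters through the authors' deposited list of regions (chromosome, start, end and a signed score). The deposited score has no header, scale or stated order of subtraction. The submitters' processing notes name mm10 as the build. The aligner, region caller, thresholds and coverage were not given in the sources used here. Positions were read as BED and are printed counting from 1.

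Regions overlapping the cluster or a gene by at least 1 bp were counted with Python 3.11.15, pandas 2.3.3 and scipy 1.17.1. Genes and sequences come from RefSeq tables (GRCm38.p6), which give gene ends but no exons or introns. The last gene end stood in for chromosome length. The overlap code was tested on simulated data. Start windows were matched for 3 of the 10 members, and proteins were not analysed here.

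All members are named, with regions given singly where they rank among the 10 highest absolute scores, are positive or reach a start window. Other single regions were chosen after their values were seen. Members and lists were chosen with earlier results of these data known. One result of the paralogue comparison is not reported here.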

Additional observations from a re-analysis of the deposited data

How the results depend on the processing

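Of 40 recomputed values, 29 stayed within 1.5 times the reported count, or within its interval for the share and the median score (a 95% order-statistic interval for the median). With only regions of absolute score 100 or more, the cluster held 13 regions (0.707 per 10 kb, 4201 bp covered, median absolute score 179), and 100% were negative. With only regions of 100 bp or more it held 25 (1.36 per 10 kb, median absolute score 114), again 100% negative. Counting gene bodies only, 5 members had a region in place of 9. Without the dense run of 13 regions on the Hoxb13 side of Hoxb9, an alternative chosen after seeing the data, covered length was 5325 bp, and 27 regions remained, 88.9% of them negative. The other boundaries, the midpoint rule and merging neighbours less than 200 bp apart gave 36 to 40 regions and 91.7% to 92.5% negative. No paired analysis was possible because each group has 1 library and no test was run. Depth, CpG number and methylation level per region are unknown, so how far coverage limited which regions could be listed was not tested.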
